A study of Mus musculus with 16 samples.

Results

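Striatal RNA-seq counts of 10 circadian clock genes were followed through 4 groups of mice. The genes were Arntl, Clock, Npas2, Per1, Per2, Per3, Cry1, Nr1d1, Dbp and Ciart. They were taken by gene symbol from a table of 48795 genes, where each matched 1 row, and all 10 passed the filter on low counts, which left 20825 genes. Whole striatum of 16 mice had been sequenced, 4 mice in each group. The mice were wild type (WT) or carried a knockout (KO) of Sapap3, whose current symbol is Dlgap3 and whose product scaffolds the postsynaptic density. An adeno-associated virus injected into the striatum carried the red fluorescent protein tdTomato, or hM4Di, a Gi-coupled designer receptor that the labels place in astrocytes. Every mouse, tdTomato controls included, received deschloroclozapine (DCZ), the agonist of hM4Di. Library names join genotype, virus and the labels' replicate number, as in WT_tdT 1 or KO_hM4D 4. The design therefore holds no hM4Di mice without agonist and no tdTomato mice without DCZ. The promoter of the viruses, strain, sex, age and the clock time of tissue collection were not stated in the labels. For 3 of the 4 WT_hM4D libraries 1 label field names the knockout hM4Di group, and the group was taken from their titles and genotype field.

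The mammalian clock is a transcriptional feedback loop. ARNTL (also called BMAL1) pairs with CLOCK, or with its forebrain-enriched relative NPAS2, and the pair binds E-box sequences to activate the Per and Cry genes, Nr1d1, Dbp and Ciart. PER and CRY proteins and CIART (also called CHRONO) inhibit the pair, while NR1D1 (REV-ERB alpha) represses Arntl and other genes through ROR elements, and DBP activates genes that carry D-boxes. Across the day, Nr1d1, Dbp and Ciart transcripts peak at a different phase from Arntl in most mouse tissues, and Per1 and Per2 are also induced acutely by neuronal activity and by glucocorticoids. A single collection per mouse gives a level and not a rhythm.

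The libraries held 129149745 to 180655067 counts, and Ciart, the member with the fewest reads, had at least 1007 counts in each library. Dlgap3 averaged 375 CPM (counts scaled to library size) in WT_tdT and 391.6 in WT_hM4D but 160 and 159 in the knockout groups. In KO_tdT it fell by 1.23 on the log2 scale against WT_tdT (SE 0.10, edgeR adjusted p = 1.41e-05). Markers of striatal projection neurons summed to 4924 to 8706 CPM per library. Of the markers listed for the suprachiasmatic nucleus, the brain's master clock, Six6 averaged 0.5 counts per library, Avp 0.675 CPM (5 to 420 counts) and Vip, which cortical interneurons also express, 19.7 CPM (1223 to 5895 counts). Markers of thalamic, septal and pallidal neurons summed to 214 to 265 CPM in the wild-type libraries, and reached 585 in KO_tdT 3 and 548 in KO_hM4D 1. In 4 libraries (WT_tdT 4, WT_hM4D 2, WT_hM4D 4 and KO_tdT 3) transcripts of both sexes were present, so that 1 mouse per library is uncertain there. In bulk tissue a change in the number of cells of a type and a change in RNA per cell cannot be told apart.

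The sequences before the transcription starts were searched for the motifs of the loop. RefSeq windows on GRCm38.p6, from 250 bases before to 50 bases after a start, were matched for 9 of the 10 members, in 13 windows. Per2 was not among them. The search covered both strands and the E-box (CACGTG), an E-box variant (CACGTT), the core of the ROR element (TAGGTCA), the D-box (TTANGTAA) and the cAMP response element (TGACGTCA). Windows are shown for the 3 members that the tests below single out most often and have windows (Ciart, Nr1d1 and Cry1), for the member with a ROR core (Arntl) and for the member with D-boxes (Per3). Capitals mark every match, and each sequence reads 5′ to 3′ on the strand of the gene. They lie at chr3:95882179-95882478 (minus strand, Ciart), chr11:98775328-98775627 (minus, Nr1d1), chr10:85185005-85185304 (minus, Cry1), chr7:113207261-113207560 (plus, Arntl) and chr4:151044616-151044915 (minus, Per3).
Ciart: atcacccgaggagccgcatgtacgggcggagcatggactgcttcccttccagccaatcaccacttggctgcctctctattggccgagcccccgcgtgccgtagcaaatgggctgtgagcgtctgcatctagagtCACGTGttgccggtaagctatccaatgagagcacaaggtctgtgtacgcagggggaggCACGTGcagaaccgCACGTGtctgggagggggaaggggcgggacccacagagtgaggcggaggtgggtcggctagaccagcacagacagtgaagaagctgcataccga
Nr1d1: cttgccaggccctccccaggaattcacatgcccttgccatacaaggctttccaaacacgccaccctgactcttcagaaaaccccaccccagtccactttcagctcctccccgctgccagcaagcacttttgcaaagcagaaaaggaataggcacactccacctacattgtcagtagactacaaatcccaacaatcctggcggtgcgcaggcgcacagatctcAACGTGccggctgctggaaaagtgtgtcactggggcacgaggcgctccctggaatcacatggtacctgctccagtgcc
Cry1: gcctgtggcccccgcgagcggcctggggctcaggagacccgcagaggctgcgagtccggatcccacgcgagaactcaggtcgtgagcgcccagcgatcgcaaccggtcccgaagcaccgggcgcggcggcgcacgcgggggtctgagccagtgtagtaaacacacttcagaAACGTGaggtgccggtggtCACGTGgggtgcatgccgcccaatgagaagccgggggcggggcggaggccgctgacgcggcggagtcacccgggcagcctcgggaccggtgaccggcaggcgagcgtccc
Arntl: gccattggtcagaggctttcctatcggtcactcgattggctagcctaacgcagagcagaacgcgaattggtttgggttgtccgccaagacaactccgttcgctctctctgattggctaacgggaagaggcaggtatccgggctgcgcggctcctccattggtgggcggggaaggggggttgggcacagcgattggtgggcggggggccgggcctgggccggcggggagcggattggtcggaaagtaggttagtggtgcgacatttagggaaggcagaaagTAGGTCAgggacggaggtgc
Per3: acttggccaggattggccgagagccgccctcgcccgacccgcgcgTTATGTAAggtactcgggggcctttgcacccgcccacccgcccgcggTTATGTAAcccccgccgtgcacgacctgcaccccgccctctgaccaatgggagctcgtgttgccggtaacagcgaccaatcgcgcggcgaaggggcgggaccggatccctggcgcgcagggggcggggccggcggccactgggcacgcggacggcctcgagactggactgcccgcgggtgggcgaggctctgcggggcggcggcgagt

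Ciart carried 3 E-boxes, which begin at -116, -58 and -44 from the start. Cry1 held an E-box at -60 and the variant at -79, Nr1d1 held the variant at -28, and Per1 held an E-box at -166 of its more upstream start (chr11:69098699-69098998). The ROR core of Arntl began 31 bases after the start, and Per3 had D-boxes at -205 and -158. No match was found in the windows of Clock, Npas2 and Dbp, and the cAMP response element was in 0 of the 13 windows. Of all 32851 windows in the RefSeq set, 7.15% held the E-box, 4.68% the variant, 2.61% the ROR core, 2.32% the D-box and 1.79% the cAMP response element. Among the 9 members with a window, 3 held the E-box, 2 the variant, 1 the ROR core and 1 the D-box. These counts are by gene over 13 windows and the shares before them are by window, so their units differ. These matches describe letters in a short window and do not show binding.

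**Figure D1:**
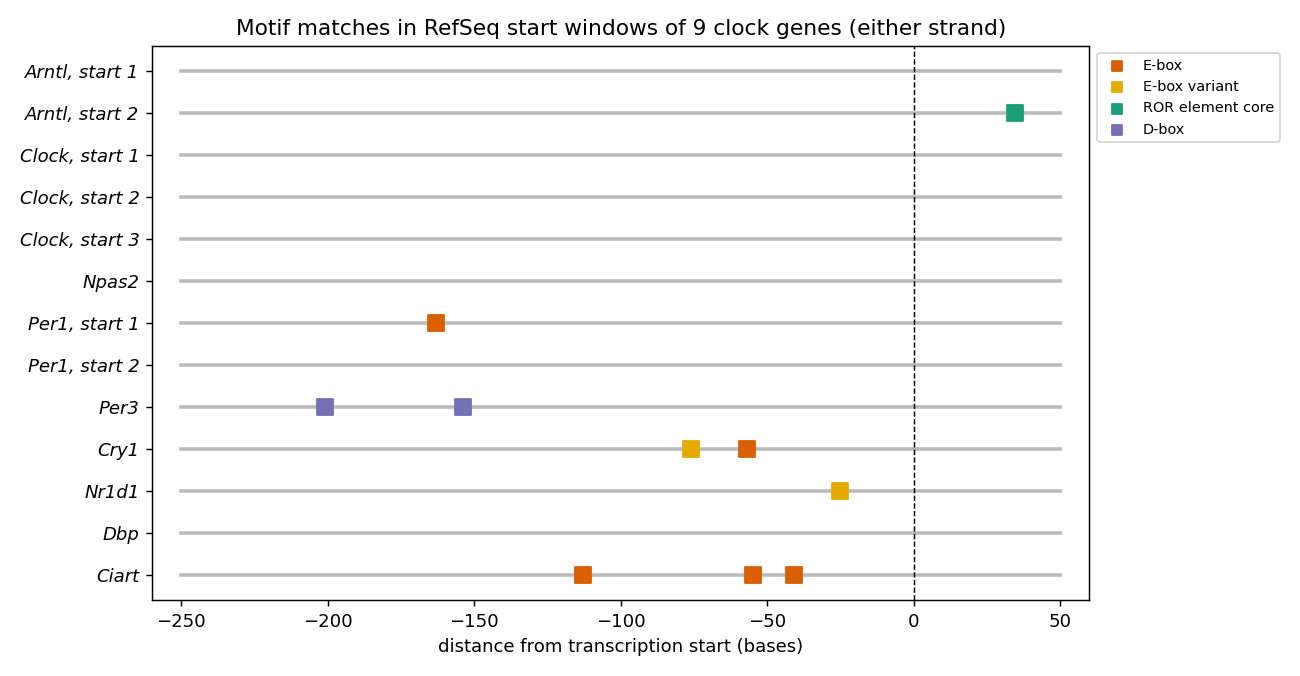
Matches to 4 clock-related motifs in the 13 RefSeq windows of 9 clock genes, by distance in bases from the transcription start (dashed line). Ciart has 3 E-boxes upstream of its start, Per3 has 2 D-boxes, and the ROR core of Arntl lies downstream of the start.

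Per length of exon the output gene Dbp was the most abundant member and Per3 the least. On the scale of CPM per kilobase of exon, means over 16 libraries were 27.6 ± 6.41 (SD) for Dbp, 13.9 ± 2.99 for Nr1d1, 10.8 ± 0.845 for Npas2 and 10.01 ± 0.577 for Clock. Per1 followed at 7.95 ± 1.59, Cry1 at 7.07 ± 1.15, Arntl at 5.89 ± 0.678, Ciart at 5.09 ± 1.54, Per2 at 4.90 ± 1.10 and Per3 at 2.67 ± 0.295. Only Dbp and Nr1d1, and Per2 and Per3, were neighbours in this order whose means lay further apart than their SDs added together. NPAS2 and CLOCK are alternative partners of ARNTL, and the mean per-length levels of their genes lay closer together than their SDs added. Within a library Npas2 was the higher of them, except in KO_tdT 3, KO_hM4D 2 and KO_hM4D 3. The comparison rests on annotated exon lengths of 4791 bases for Npas2 and 13727 for Clock, and it was not tested. The 2 members with the steadiest levels were also these partners: the highest library was 1.23 times the lowest for Clock and 1.30 times for Npas2, against 2.16 times for Nr1d1 and 2.15 times for Dbp.

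Nr1d1, the repressor of Arntl, had the clearest pattern by library. Its levels in WT_tdT 1 to 4 were 62.1, 52.7, 54.2 and 52.2 CPM. In WT_hM4D they were 33.8, 40.5, 31.0 and 37.6 CPM, in KO_tdT 37.7, 28.7, 41.9 and 40.6 CPM, and in KO_hM4D 44.8, 49.2, 35.6 and 40.6 CPM. All 12 libraries of the other groups lay below all 4 WT_tdT libraries, while the other groups overlapped each other. No other member separated WT_tdT from all 12 libraries, and 0.711% of the 20825 genes did. Against WT_tdT the log2 change was -0.57 (SE 0.12, edgeR adjusted p = 0.174) in KO_tdT, -0.63 (SE 0.12, adjusted p = 0.0653) in WT_hM4D and -0.38 (SE 0.12, adjusted p = 0.0984) in KO_hM4D. None of these passed 0.05 over all genes in edgeR, whereas DESeq2 on the same counts gave adjusted p of 0.00564, 0.000446 and 0.0390. The 3 comparisons share the WT_tdT libraries and are not independent of each other.

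Ciart, an inhibitor of the ARNTL complex, was also highest in WT_tdT. WT_tdT 1 to 4 had 18.7, 14.2, 16.1 and 17.4 CPM. WT_hM4D had 8.49, 9.69, 10.3 and 10.6 CPM, KO_tdT 7.51, 7.83, 10.3 and 14.3 CPM, and KO_hM4D 10.3, 9.01, 9.71 and 9.79 CPM. The library KO_tdT 4 alone reached into the WT_tdT range, and the other 11 lay below it. Ciart fell in KO_hM4D relative to WT_tdT by 0.78 on the log2 scale (SE 0.16, 95% interval -1.11 to -0.45, edgeR adjusted p = 0.0251). In WT_hM4D the change was -0.76 (SE 0.16, adjusted p = 0.0732) and in KO_tdT -0.74 (SE 0.16, adjusted p = 0.181). Without KO_tdT 4, the highest KO_tdT library, the last value was -0.96 with an edgeR adjusted p of 0.00134. That was the only call of this comparison in the 16 fits that left out 1 library, where the adjusted p reached 0.617. Leaving out the highest library deepens the fall by construction, so that fit gives no support.

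Dbp, the output activator, had 118, 103, 83.5 and 104 CPM in WT_tdT. WT_hM4D had 73.1, 75.8, 73.4 and 80.6 CPM, KO_tdT 56.4, 59.4, 72.1 and 121 CPM, and KO_hM4D 83.5, 75.2, 65.3 and 77.7 CPM. The highest Dbp level of all 16 libraries was in KO_tdT 4, and the other 11 libraries outside WT_tdT lay below that group, KO_hM4D 1 narrowly at 83.51 against 83.54 CPM in WT_tdT 3. The log2 changes against WT_tdT were -0.40 (SE 0.18) in KO_tdT, -0.43 (SE 0.18) in WT_hM4D and -0.43 (SE 0.18) in KO_hM4D, with edgeR adjusted p of 0.551, 0.402 and 0.190. Of the 16 fits that left out 1 library, only that without KO_tdT 4 called Dbp against WT_tdT. It gave -0.70 in KO_tdT (edgeR adjusted p = 0.0113) and -0.43 in KO_hM4D (0.0308). Over the 16 fits the adjusted p reached 0.998 in KO_tdT and 0.371 in KO_hM4D. Leaving out the highest KO_tdT library deepens the fall by construction, so that fit gives no support.

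Per1, a PER repressor that is also an activity-induced gene, had 54.4, 42.7, 46.8 and 67.5 CPM in WT_tdT. WT_hM4D had 34.4, 44.6, 37.9 and 42.6 CPM, KO_tdT 39.4, 35.0, 36.8 and 59.5 CPM, and KO_hM4D 42.1, 44.3, 41.8 and 46.3 CPM. WT_tdT overlapped each other group, although 8 of the 12 libraries lay below its lowest value. The log2 changes were -0.31, -0.41 and -0.28 (SE 0.16 each) in KO_tdT, WT_hM4D and KO_hM4D, and the smallest edgeR adjusted p was 0.332.

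Per2, the other activity-responsive PER gene, lay on the opposite side. WT_tdT had 18.8, 21.3, 18.1 and 25.2 CPM. WT_hM4D had 31.0, 34.5, 37.1 and 30.1 CPM, KO_tdT 33.0, 34.4, 18.8 and 25.6 CPM, and KO_hM4D 30.8, 34.1, 31.3 and 35.1 CPM. Both hM4Di groups lay wholly above WT_tdT, and in KO_tdT the library KO_tdT 3 stayed within the WT_tdT range. KO_tdT 3 held the most thalamic, septal and pallidal marker RNA (585 CPM). KO_hM4D 1 held 548 CPM of it and had Per2 at 30.8 CPM, above the WT_tdT range. The part of these markers in the Per2 level of single libraries was not tested. Per2 rose in KO_hM4D relative to WT_tdT by 0.66 on the log2 scale (SE 0.15, 95% interval 0.34 to 0.97, edgeR adjusted p = 0.0387). In WT_hM4D the change was 0.67 (SE 0.15, adjusted p = 0.0984) and in KO_tdT 0.42 (SE 0.15, adjusted p = 0.453).

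Cry1, a CRY repressor, had 19.8, 19.3, 17.1 and 21.3 CPM in WT_tdT. WT_hM4D had 29.9, 21.3, 31.3 and 27.4 CPM, KO_tdT 24.7, 26.2, 20.2 and 24.1 CPM, and KO_hM4D 24.2, 23.6, 23.6 and 23.8 CPM. The hM4Di groups lay above WT_tdT, with WT_hM4D 2 at 21.33 CPM against 21.31 in WT_tdT 4, and KO_tdT overlapped it through KO_tdT 3. The log2 change was 0.51 (SE 0.10, edgeR adjusted p = 0.0732) in WT_hM4D, 0.30 (SE 0.10, adjusted p = 0.453) in KO_tdT and 0.30 (SE 0.10, adjusted p = 0.127) in KO_hM4D. Per3, the PER gene with D-boxes in its window, averaged 24.04 ± 1.04 (SD, n = 4) CPM in WT_tdT, 26.2 ± 2.34 in WT_hM4D, 23.7 ± 3.31 in KO_tdT and 28.4 ± 1.80 in KO_hM4D. Its KO_hM4D libraries lay above all WT_tdT libraries (log2 change 0.24, SE 0.09, edgeR adjusted p = 0.142).

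In the activator arm 0 of 3 members were called against WT_tdT in any group by edgeR or DESeq2. Over all genes edgeR called 0.0384%, 0.0864% and 1.95% and DESeq2 0.304%, 1.36% and 8.42% in KO_tdT, WT_hM4D and KO_hM4D. With 3 genes a count of 0 is near those shares. Arntl alone had an unadjusted p under 0.05 in edgeR, in KO_tdT and KO_hM4D. There 8.69% and 20.5% of all genes did. Arntl had 39.2, 37.7, 43.5 and 38.4 CPM in WT_tdT. WT_hM4D had 50.1, 44.0, 43.8 and 37.9 CPM, KO_tdT 51.3, 48.2, 48.3 and 40.5 CPM, and KO_hM4D 45.1, 54.7, 44.3 and 42.0 CPM. In each of the 3 groups at least 1 library lay inside the WT_tdT range, and 9 of the 12 lay above it. The log2 changes were 0.25, 0.15 and 0.23 (SE 0.09 each) in KO_tdT, WT_hM4D and KO_hM4D, with edgeR adjusted p of 0.482, 0.596 and 0.186. Clock averaged 134.7 ± 2.997, 132.6 ± 6.36, 140 ± 11.1 and 143 ± 7.49 CPM (SD, n = 4) in WT_tdT, WT_hM4D, KO_tdT and KO_hM4D. Npas2 averaged 53.1 ± 4.37, 53.2 ± 4.64, 50.3 ± 4.34 and 50.6 ± 3.55 CPM in the same order. The 95% intervals of their log2 changes against WT_tdT ran from -0.14 to 0.20 for Clock and from -0.24 to 0.17 for Npas2 over the 3 groups.

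**Figure D2:**
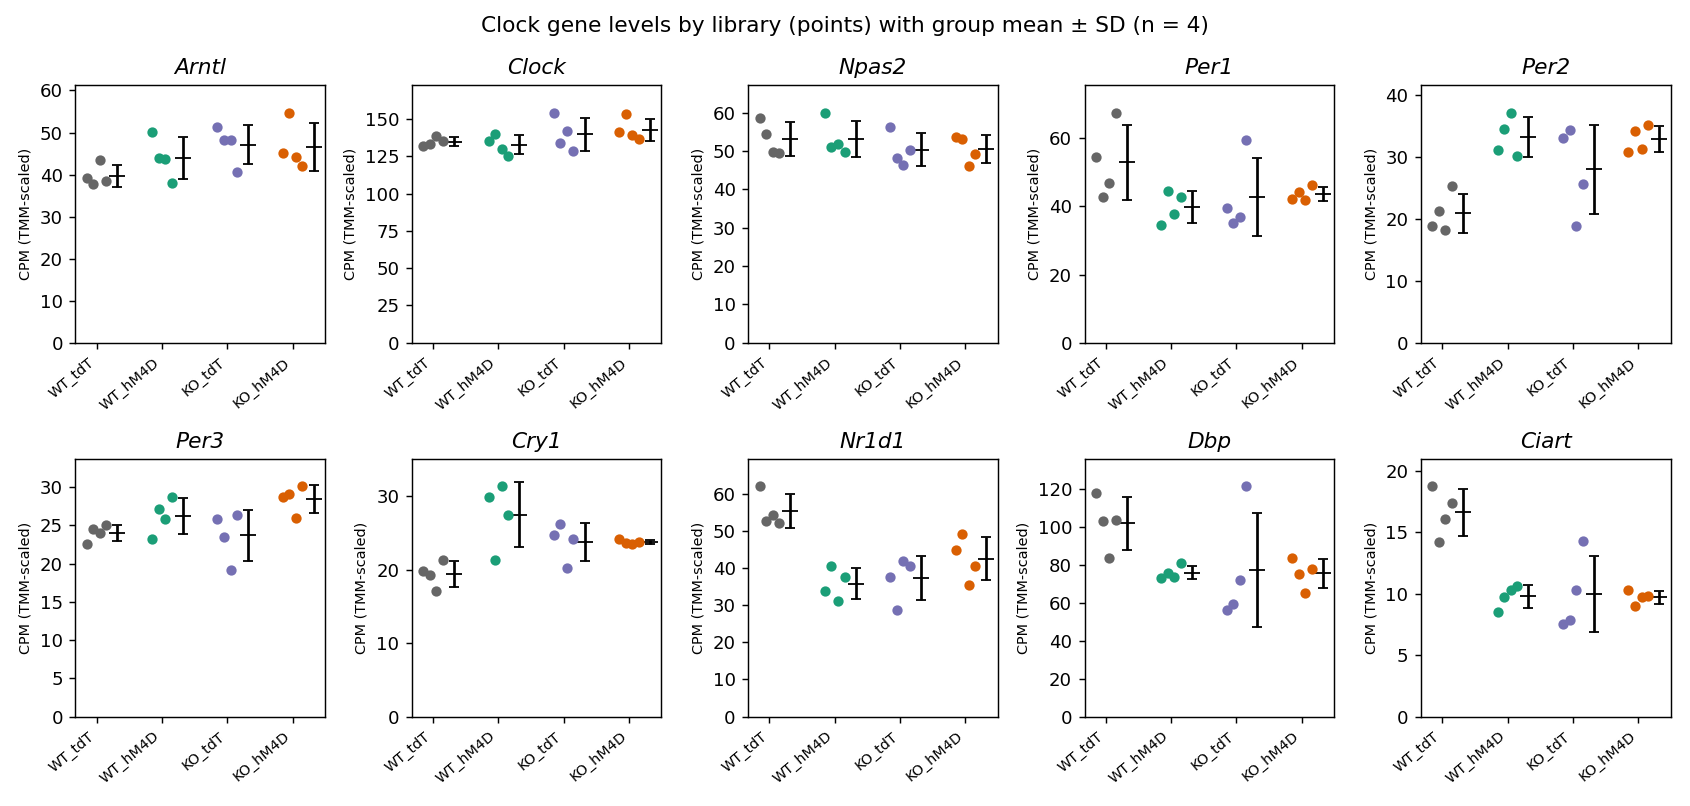
Levels of the 10 clock genes in CPM, scaled with TMM factors, in each of 16 libraries (points) with the group mean and SD (n = 4). Nr1d1 is below the 4 WT_tdT libraries in all 12 others, Dbp and Ciart in 11 of 12, and Per2 and Cry1 are above them in 11 of 12.

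The comparison of KO_tdT with WT_tdT asked what loss of Dlgap3 did under the control virus. Of the 10 members 0 passed an edgeR adjusted p of 0.05, where 0.0384% of all tested genes did. An unadjusted p under 0.05 was reached by 6 members and by 8.69% of all genes. DESeq2 called 2, Nr1d1 and Ciart, against 0.304% of all genes. Only Nr1d1 had groups of libraries that did not overlap, against 4.09% of all genes. Of the 16 fits that left out 1 library, 15 gave 0 edgeR calls among the members, and that without KO_tdT 4 gave 2, Dbp and Ciart. That library also ranked 2 of 16 for Per1 and 15 of 16 for Clock, and was the lowest of 16 in summed cortical neuron markers (462.5 CPM, others 545 to 1078) and the highest in oligodendrocyte markers (10194 CPM, others 4399 to 9479). Its striatal projection neuron markers were also the highest of 16, at 8706 CPM against 8680 in WT_tdT 1. The other KO_tdT libraries had 5059 to 5474 CPM. With the cortical list as a covariate, an alternative chosen after seeing the data, edgeR called Ciart alone in this comparison (-0.78, adjusted p = 0.0187). The part of the oligodendrocyte and striatal projection neuron markers was not tested.

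The comparison of WT_hM4D with WT_tdT asked what hM4Di with its agonist did in wild-type mice. By edgeR 0 of 10 members passed, against 0.0864% of all genes, and 6 had an unadjusted p under 0.05, against 11.1% of all genes. DESeq2 called 4, Per2, Cry1, Nr1d1 and Ciart, against 1.36% of all genes. Groups did not overlap for 5 members, Per2 and Cry1 above and Nr1d1, Dbp and Ciart below, against 6.83% of all genes. Leaving out 1 library gave edgeR calls in 5 of 16 fits and 0 calls in 11. Cry1 and Nr1d1 were called without WT_hM4D 2 (adjusted p of 0.0108 and 0.0452). Nr1d1 and Ciart were called without KO_tdT 2 (0.0183 and 0.0413) or without KO_tdT 4 (0.0466 and 0.00393). Nr1d1 was called without KO_hM4D 3 (0.0488) and Per2 without KO_tdT 3 (0.0334). The share of all genes called in these fits is not given here, so the calls are a description. Markers of reactive astrocytes summed to 293 to 341 CPM in WT_hM4D against 113 to 130 in WT_tdT, with 5 of 6 called higher. They stood at 112 to 149 CPM in KO_tdT, where Nr1d1 averaged 37.2 CPM against 35.8 in WT_hM4D. Their part in the clock gene levels was not tested.

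The virus comparison within the knockout, KO_hM4D against KO_tdT, gave 0 edgeR calls among the members (0.00480% of all genes), 0 DESeq2 calls (0.674%) and 0 members without overlap (4.88%), and 1 of 10 members had an unadjusted p under 0.05, near the 11.1% of all genes that did. That was Per3, 0.26 higher on the log2 scale (SE 0.09, adjusted p = 0.349 in edgeR). Ciart differed by -0.04 with a 95% interval of -0.37 to 0.29, and Nr1d1 by 0.19 with an interval of -0.06 to 0.44. The genotype comparison under hM4Di, KO_hM4D against WT_hM4D, likewise gave 0 edgeR calls (0.0192%), 0 DESeq2 calls (0.423%) and 0 members without overlap (6.09%), and 0 had an unadjusted p under 0.05 (12.7%). Same-numbered libraries of these 2 groups deviated together in the data, although no source pairs them. A fit of these groups alone with the replicate number as a block was added after seeing the data. It called 1232 of 20127 genes (6.12%), where the same groups without the block gave 7. The block was picked from these same data, so its calls are a description and give no support. Nr1d1 was the 1 member called there, higher in KO_hM4D (0.25, SE 0.05, edgeR adjusted p = 0.0355), where the same groups without the block gave an adjusted p of 0.322 and the block on 16 libraries 0.420. Of the other clock genes 5 were called with that block, Rorb (0.57), Bhlhe40 (0.42), Arntl2 (0.41) and Nfil3 (0.26) higher and Sik1 (-0.21) lower. Between KO_tdT and WT_hM4D, which differ in both factors, the same counts were 0, 0 and 0 (0.0624%, 0.552% and 3.73% of all genes), with 0 at an unadjusted p under 0.05 (7.69%).

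KO_hM4D differed from WT_tdT in genotype and virus together. Per2 rose and Ciart fell, 2 of 10 members against 1.95% of all tested genes in edgeR, and DESeq2 added Nr1d1 for a count of 3 (8.42% of all genes). Groups did not overlap for 6 members, Per2, Per3 and Cry1 above and Nr1d1, Dbp and Ciart below, against 14.0% of all genes. Each call depended on single libraries. The Per2 call was lost without any 1 of WT_tdT 1, WT_tdT 2, WT_tdT 3, WT_hM4D 3 or the 4 KO_hM4D libraries (adjusted p of 0.0514 to 0.109). The Ciart call was lost without any 1 of the 4 WT_tdT libraries, KO_hM4D 1, KO_hM4D 2 or KO_hM4D 4 (0.0516 to 0.0875). The direction held in each of these fits, with log2 changes of 0.59 to 0.83 for Per2 and -0.89 to -0.67 for Ciart over 25 alternatives.

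**Figure D3:**
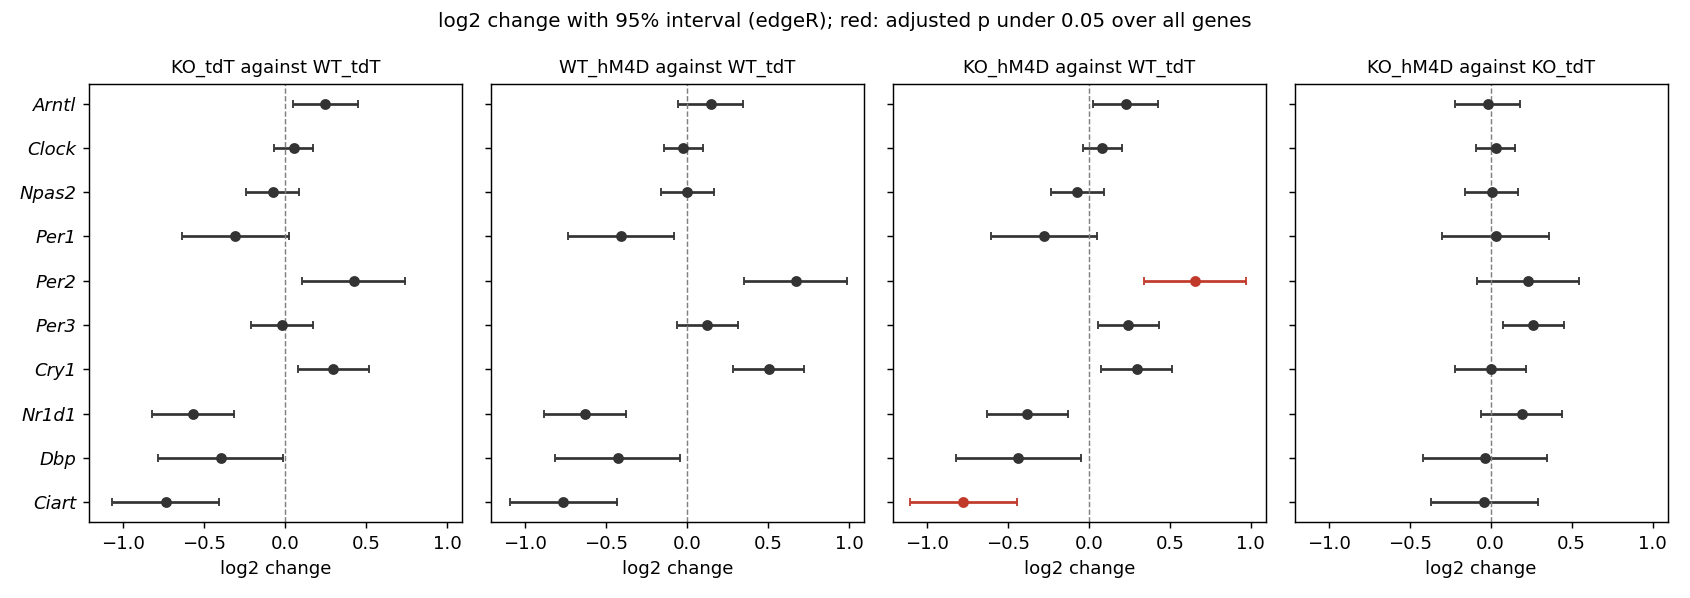
Log2 change of each clock gene with its 95% interval from the edgeR fit on 16 libraries, in 4 comparisons, with adjusted p under 0.05 over all genes in red. Per2 (0.66) and Ciart (-0.78) in KO_hM4D against WT_tdT are the red points, and the intervals for KO_hM4D against KO_tdT, other than that of Per3, include 0.

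The interaction asked whether the virus effect differed between genotypes. Its log2 size was 0.82 for Nr1d1 (SE 0.17, 95% interval 0.47 to 1.18, unadjusted p = 0.000162), which ranked 4 of 20825 genes in edgeR, yet its adjusted p was 0.658. Ciart had 0.72 (SE 0.22) and Cry1 -0.51 (SE 0.15), each with an edgeR adjusted p of 0.658. By edgeR 0 members and 0% of all genes were called, and 3 members had an unadjusted p under 0.05, against 6.77% of all genes. DESeq2 called Nr1d1 alone (adjusted p = 0.00788), against 0.0682% of all genes. In levels, hM4Di went with a mean Nr1d1 of 35.8 against 55.3 CPM in the wild type, and of 42.5 against 37.2 CPM in the knockout. For a difference of any kind among the 4 groups, Ciart had an edgeR adjusted p of 0.0578, Nr1d1 of 0.0689, Per2 of 0.117 and Cry1 of 0.123. There 0 members were called by edgeR (0.173% of all genes) and these 4 by DESeq2 (5.07% of all genes). In edgeR, 5 of the 10 members had an unadjusted p under 0.05 there, against 16% of all genes. Of the 16 fits that left out 1 library, 11 called 0 members for any difference in edgeR. Leaving out WT_hM4D 2 gave a call for Cry1 (adjusted p = 0.0335) and leaving out KO_tdT 1 for Ciart (0.0469). Without KO_tdT 2 Nr1d1 (0.0372) and Ciart (0.0437) were called, without KO_tdT 3 Per2 (0.0451), and without KO_tdT 4 Dbp (0.0279) and Ciart (0.000775). The share of all genes called in these fits is not given here, so the calls are a description.

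The arms were set against each other by their medians and sums, with no test of the difference. The median log2 change of the 3 activators was 0.05 in KO_tdT, 0.00 in WT_hM4D and 0.08 in KO_hM4D against WT_tdT. That of the 7 repressors and output genes was -0.31, -0.41 and -0.28, while the median of all genes was 0.00 in each. The arms overlapped gene by gene: Arntl had 0.25, 0.15 and 0.23, and Per3 -0.02, 0.13 and 0.24. The median also hides opposite signs, since Per2 and Cry1 had positive changes in each comparison with WT_tdT and Nr1d1, Dbp, Ciart and Per1 negative ones. The repressor and output genes summed to 260 to 314 CPM in WT_tdT, 234 to 258 in WT_hM4D, 233 to 265 in KO_hM4D and 215 to 312 in KO_tdT, where KO_tdT 4 supplied the top. The activators summed to 223 to 232 CPM in WT_tdT and to 213 to 262 in the other groups.

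Ratios within a library do not depend on library scaling. The ratio of Arntl to Nr1d1 was 0.721 ± 0.0702 (SD, n = 4) in WT_tdT, 1.25 ± 0.234 in WT_hM4D, 1.30 ± 0.294 in KO_tdT and 1.10 ± 0.106 in KO_hM4D. No WT_tdT library exceeded 0.802 and no other library was under 0.998. Arntl to Ciart separated in the same way, with at most 2.70 in WT_tdT and at least 2.84 elsewhere, and so did Cry1 to Nr1d1, at most 0.408 and at least 0.480. Per2 to Per1 was 0.401 ± 0.0674 in WT_tdT and 0.752 ± 0.0162 in KO_hM4D, but 0.430 to 0.981 across the KO_tdT libraries. Arntl to Dbp did not separate KO_tdT (0.334 to 0.911) from WT_tdT (0.333 to 0.521). These ratios use the members already seen to differ and are given as a description.

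**Figure D4:**
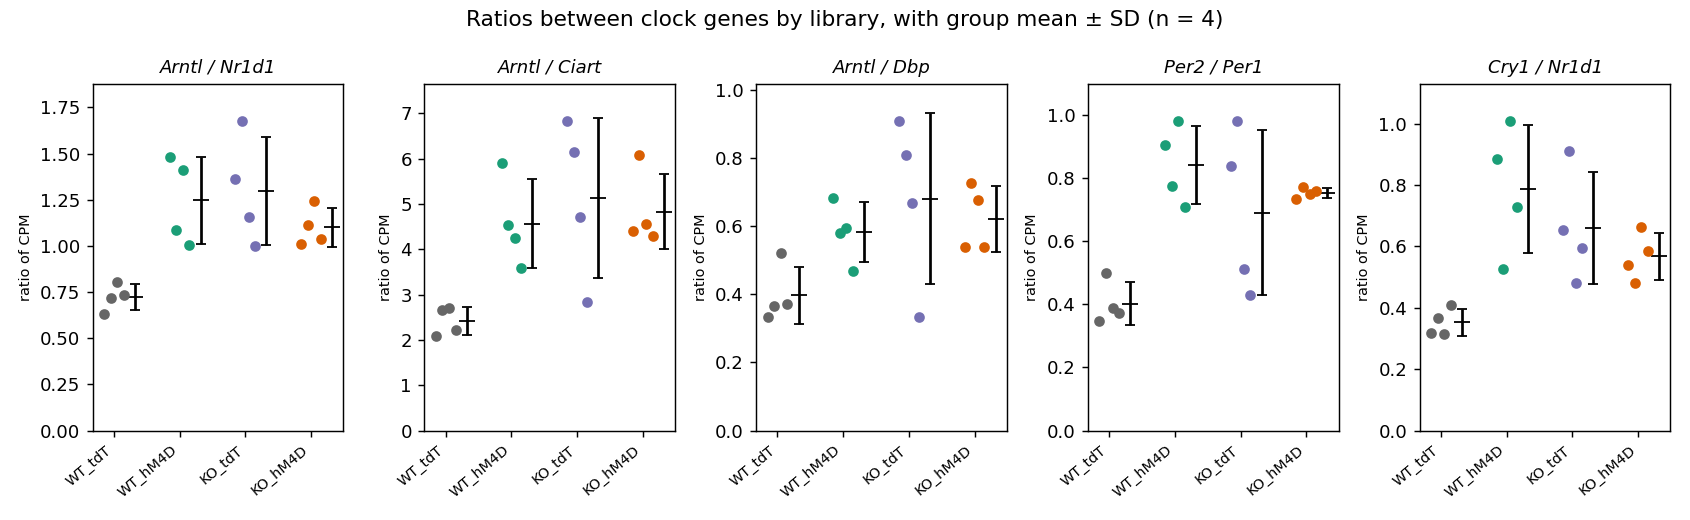
Ratios of CPM between pairs of clock genes in each library (points) with the group mean and SD (n = 4). Arntl to Nr1d1, Arntl to Ciart and Cry1 to Nr1d1 are lower in all 4 WT_tdT libraries than in the other 12, whereas Arntl to Dbp and Per2 to Per1 of KO_tdT span a wide range.

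Within groups Arntl varied with Clock. After group means were removed, Arntl and Clock deviated together over the 16 libraries (Pearson r = 0.81, permutation p = 0.00111, adjusted over 9 relations 0.00999). Spearman's rho was 0.81 (permutation p = 0.00047, adjusted 0.00423), r was 0.70 without the libraries farthest out in Arntl, KO_hM4D 2 and KO_tdT 4, and 0.84 without the 4 libraries of mixed sex. Libraries high in Arntl for their group tended to be low in Ciart, with r = -0.61 (permutation p = 0.00819, adjusted 0.0369) and rho = -0.54 (permutation p = 0.0438, adjusted 0.131), so that this relation passed with Pearson's r only. It was -0.50 without those 2 libraries and -0.63 without the mixed ones. For Dbp r was -0.58 (permutation p = 0.0220, adjusted 0.0661), rho was -0.66 (permutation p = 0.0139, adjusted 0.0626), and r was -0.55 without the 2 farthest libraries. The relation of Arntl to Nr1d1, its repressor, was near 0 (r = 0.05, permutation p = 0.885, adjusted 0.885), and none of the other 5 relations passed (smallest adjusted permutation p 0.131, for Per1). Among the outputs, Dbp and Ciart had a within-group r of 0.86, given as a description. KO_tdT 4 deviated farthest upward in both (0.72 and 0.56 in log2) and KO_tdT 1 farthest downward (-0.38 and -0.36). This r was not taken without them. Markers of cortical excitatory neurons moved with the same deviations. In a family of 4 relations chosen after the data were seen, their mean log2 CPM had r = 0.59 with Arntl (permutation p = 0.0380, adjusted 0.0506; rho = 0.59, permutation p = 0.0334, adjusted 0.0334) and r = 0.82 with Clock (permutation p = 0.00088, adjusted 0.00352; rho = 0.69, permutation p = 0.0085, adjusted 0.0313). With Dbp r was -0.70 (permutation p = 0.00827, adjusted 0.0165; rho = -0.65, permutation p = 0.0166, adjusted 0.0313), and with Ciart -0.60 (permutation p = 0.0521, adjusted 0.0521; rho = -0.63, permutation p = 0.0235, adjusted 0.0313). Without WT_hM4D 2 and KO_tdT 4, the farthest in these markers, r was 0.58, 0.75, -0.73 and -0.52 for Arntl, Clock, Dbp and Ciart. With the cortical list held constant, the partial r of Arntl was 0.70 with Clock, -0.40 with Ciart and -0.28 with Dbp.

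**Figure D5:**
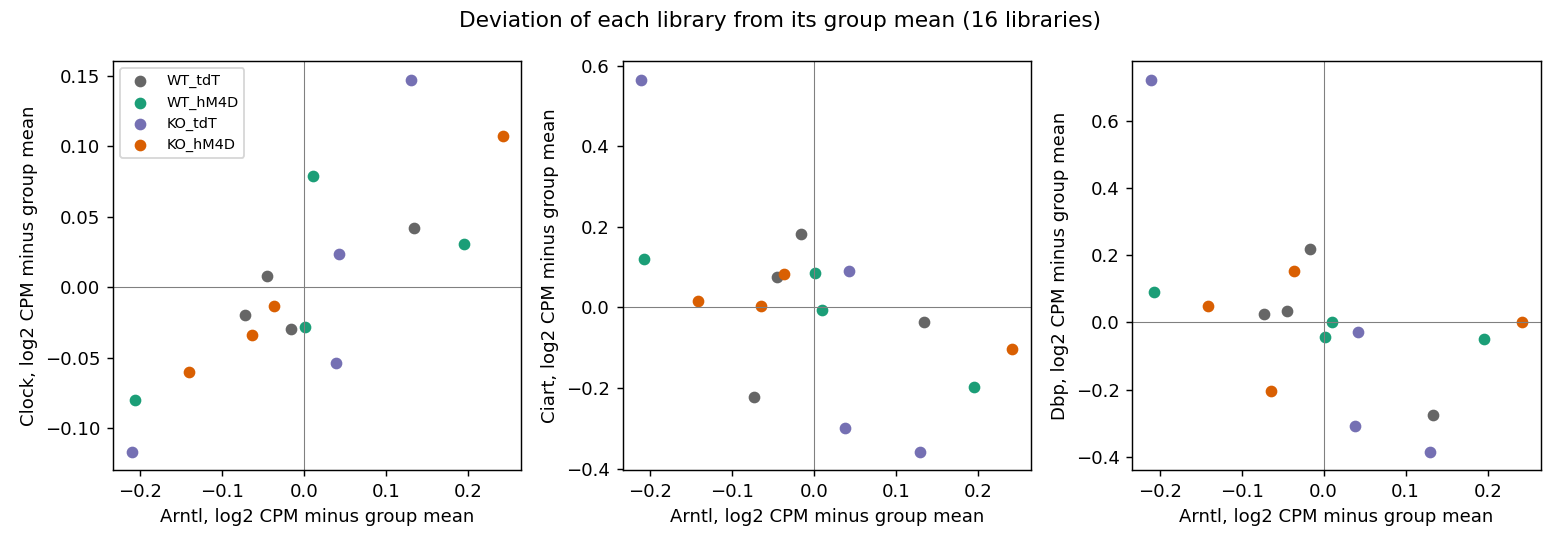
Deviation of each of 16 libraries from its group mean in log2 CPM, for Arntl (horizontal) against Clock, Ciart and Dbp (vertical). Points rise with Arntl for Clock (r = 0.81) and descend for Ciart (r = -0.61) and Dbp (r = -0.58), with KO_tdT 4 at the low-Arntl, high-output end.

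A list of 27 other clock genes, all tested, was followed beside the members. In KO_hM4D against WT_tdT 5 were called by edgeR, against 1.95% of all genes. Sik1, a kinase that limits light resetting of the clock, fell by 0.66 (log2, SE 0.14, adjusted p = 0.0274), and Usp2, a deubiquitinase of clock proteins, fell by 0.25 (SE 0.06, adjusted p = 0.0416). Nampt, the enzyme of NAD salvage, fell by 0.21 (SE 0.05, adjusted p = 0.0415). Arntl2, the paralog of Arntl, rose by 0.58 (SE 0.13, adjusted p = 0.0357) from 1.26 to 1.89 CPM, and Tsc22d3, a glucocorticoid-induced gene, rose by 0.55 (SE 0.12, adjusted p = 0.0327) from 76.3 to 111 CPM. Wee1, a cell cycle kinase under clock control, had 0.38 (adjusted p = 0.0560). These 5 calls numbered 0 to 6 when 1 library was left out and 0 without the 4 mixed-sex libraries. None of the 27 was called by edgeR in KO_tdT or WT_hM4D against WT_tdT (0.0384% and 0.0864% of all genes). An unadjusted p under 0.05 was seen there for 4 and 3 of them (8.69% and 11.1% of all genes). DESeq2 called 1 in each (0.304% and 1.36% of all genes). The smallest p there belonged to Usp2 (-0.30, edgeR adjusted p = 0.152, and -0.22, adjusted p = 0.170), Sik1 (-0.47, 0.387, and -0.45, 0.248) and Noct (0.18, 0.487, and 0.16, 0.404), a deadenylase-family output gene. Arntl2 (0.28, 0.566) and Gsk3b (-0.10, 0.616) followed in KO_tdT, and Gsk3b (-0.11, 0.463) and Wee1 (0.20, 0.469) in WT_hM4D.

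For the paralogs of Nr1d1 and Cry1, 0 edgeR calls were made against WT_tdT, where 0.0384% to 1.95% of all genes were called. Nr1d2, the second REV-ERB gene, averaged 128 ± 5.38 CPM in WT_tdT, 130 ± 6.54 in WT_hM4D, 130 ± 4.88 in KO_tdT and 141 ± 11.6 in KO_hM4D (SD, n = 4). Cry2, the paralog of Cry1, averaged 113 ± 3.799, 113 ± 6.54, 109 ± 5.70 and 117 ± 4.85 CPM in that order. Against WT_tdT the 95% interval of the log2 change of Nr1d2 ran from -0.11 to 0.14 in WT_hM4D, where that of Nr1d1 ran from -0.88 to -0.38. In KO_hM4D it ran from 0.01 to 0.26 (unadjusted p = 0.0395, edgeR adjusted p = 0.218), and that of Cry2 from -0.06 to 0.16. The difference between paralogs was not tested.

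Immediate early genes, which neuronal activity induces, were also highest in WT_tdT, though most did not pass in edgeR. Fos averaged 39.96 CPM in WT_tdT, 12.6 in WT_hM4D, 13.7 in KO_tdT and 9.43 in KO_hM4D, and fell against WT_tdT in each (edgeR adjusted p of 0.0107, 0.0279 and 0.00332). The mean log2 CPM of 24 immediate early genes was 4.46 to 4.96 in the WT_tdT libraries and at most 4.36 in the others, where the highest was KO_tdT 4, the library with WT_tdT-like Dbp, Per1 and Ciart. Of these 24 genes 3 were called lower in KO_tdT, 5 in WT_hM4D and 10 in KO_hM4D by edgeR. Over all genes edgeR called 0.0384%, 0.0864% and 1.95% in either direction. DESeq2 called 8, 12 and 16 of the 24 in the same order, against 0.304%, 1.36% and 8.42% of all genes. Per1 had the direction of this list and Per2 the opposite one. Among 16 glucocorticoid response genes, a list that holds Per1 and Tsc22d3, 4 were called higher and 1 lower in KO_hM4D against WT_tdT. The share of all genes called there by edgeR was 1.95%. The part of neuronal activity, of corticosterone and of the clock time of collection in the clock gene levels was not tested, and clock time cannot be told apart from the groups with the labels at hand.

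Overlapping genes bear on 2 members. The exons of Nr1d1 (chr11:98767932-98775333, minus strand) share 263 bases, 8.55% of their length, with Thra on the other strand, and those of Dbp (chr7:45705088-45710203, plus strand) share 539 bases, 18.0%, with Sphk2. Whether counting used strand is not given in the sources used here, so how reads of such stretches were counted is not known. Thra averaged 486 CPM in WT_tdT and changed by -0.01, 0.01 and -0.08 in KO_tdT, WT_hM4D and KO_hM4D. Sphk2 averaged 21.9 CPM and had positive log2 changes of 0.14, 0.10 and 0.21, opposite in sign to those of Dbp.

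Genes outside the members whose log2 CPM was most like Arntl over the 16 libraries were Zdhhc5 (Pearson r = 0.90), Usp15 (0.89), Golph3 (0.89), Nupl1 (0.87) and Dgcr8 (0.87), and most opposite were Snd1 (-0.86), Cdk5rap3 (-0.86), Rsg1 (-0.85), Hnrnpl (-0.85) and B3gntl1 (-0.84). For Dbp the most alike were Ano2 (0.92), Efcc1 (0.92), Arhgap27 (0.91), Mbtps1 (0.91) and Rapsn (0.91), and the most opposite Zfp426 (-0.91), Clvs2 (-0.91), Arl5a (-0.90), Nif3l1 (-0.90) and Hectd2 (-0.90). They are the extremes of 13955 candidates averaging 1 CPM or more, and the libraries share groups and composition, so the values are a description.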

How the data were processed

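The authors deposited raw counts, whole numbers per gene and library. Reads were converted with bcl2fastq 2.17, aligned with STAR and counted with HTSeq on GRCm38 (mm10), per the submitters' processing notes, and libraries were stranded, made from rRNA-depleted total RNA, per the labels' protocols. The annotation release, strand setting, filters and aligner and counter versions: not given in the sources used here.

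The test was that of edgeR 4.0.16 (R 4.3.3): filterByExpr by group (20825 of 48795 genes), TMM factors, 1 quasi-likelihood model of 16 libraries with a coefficient per group (12 residual degrees of freedom, biological coefficient of variation 0.127), two-sided F tests and Benjamini-Hochberg adjustment over all tested genes, called under 0.05. DESeq2 1.42.0, RLE factors, no filter, a replicate block, covariates of thalamic and of cortical markers and fits without libraries were alternatives. CPM are TMM-scaled, and log2 CPM has a prior count of 2. Exon lengths and coordinates are from GENCODE M21, matched to 48435 identifiers. Within-group correlations were permuted 100000 times. The fit was tested on simulated data.

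Between libraries of a group, chi-square divided by its degrees of freedom was 13.0 to 142, above sampling noise, and each library was taken as 1 mouse. The main tests used no replicate block. As alternatives, a block was fitted on all 16 libraries and on WT_hM4D and KO_hM4D alone. Between WT_hM4D and KO_hM4D, deviations of same-numbered libraries from the group means correlated in each of 4 pairs (0.101 to 0.487), as a hint from the data. The members and gene lists were chosen with earlier results of these data known. Named genes were all members, other clock genes that were called or among the 5 of smallest p against WT_tdT, the 5 most alike and opposite to Arntl and Dbp, Dlgap3 and Fos.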

Additional observations from a re-analysis of the deposited data

How the results depend on the processing

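By DESeq2 2 members were called in KO_tdT against WT_tdT (0.304% of all genes) and 4 in WT_hM4D against WT_tdT (1.36%). It called 1 in the interaction (0.0682%) and 4 for any difference (5.07%). In each of these edgeR called 0. With no filter on low counts edgeR called 1 in WT_hM4D against WT_tdT (Nr1d1) and 2 for any difference. With the thalamic marker covariate it called 1 in each of these (Per2). With the cortical marker covariate, chosen after seeing the data, it called 1 in KO_tdT (Ciart), 2 in WT_hM4D against WT_tdT and 2 for any difference (Nr1d1 and Ciart each time). With only the groups compared in the fit it called 3 in WT_hM4D and 5 in KO_hM4D against WT_tdT, where the main counts were 0 and 2. Without the 4 libraries that hold transcripts of both sexes it called 1 in WT_hM4D against WT_tdT, 1 in the interaction and 1 for any difference, Cry1 each time, and Ciart lost its call in KO_hM4D against WT_tdT (adjusted p = 0.101). Without KO_tdT 3 and KO_hM4D 1, a choice made after seeing the data, it called 1 in WT_hM4D and 1 in KO_hM4D against WT_tdT (Per2 in each). Leaving out 1 library gave 0 to 2 calls in KO_tdT and in WT_hM4D against WT_tdT, 0 to 3 in KO_hM4D against WT_tdT and 0 to 2 for any difference. The log2 change of Dbp was -0.04 in KO_hM4D against KO_tdT and 0.03 in KO_tdT against WT_hM4D. Its sign turned in 4 and 3 of 25 alternatives. In KO_hM4D against KO_tdT those of Cry1 and Npas2 turned in 8 of 25 each. Dbp ranged from -0.17 to 0.27 in KO_hM4D against KO_tdT and from -0.27 to 0.16 in KO_tdT against WT_hM4D. The 0.27 and the -0.27 came without KO_tdT 4. The cause was not tested. RLE factors changed no count. Apart from DESeq2 and the block on the hM4Di groups, the share of all genes called under these alternatives is not given here. A changed member count under them is therefore not read as a result about the clock genes.

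Same-numbered libraries of WT_hM4D and KO_hM4D deviated together (correlations of 0.101 to 0.487 in 4 pairs), and in each other combination of groups at least 1 pair had a negative correlation (-0.372 to 0.273). Differently numbered libraries of WT_hM4D and KO_hM4D correlated at -0.470 to 0.380. With a replicate block on 16 libraries edgeR called 2 members in KO_hM4D against WT_tdT (Per2, adjusted p = 0.0464, and Ciart, 0.0282) and 0 in the other comparisons. With a replicate block on the hM4Di groups only, added after seeing the data, it called 1 member (Nr1d1) and 5 other clock genes in KO_hM4D against WT_hM4D. That fit called 6.12% of 20127 genes, where the same groups without the block gave 7 genes. In KO_hM4D against WT_tdT the other clock genes called, 5 in the fit on 16 libraries, were 6 by DESeq2, 3 with no filter, 0 without the mixed-sex libraries and 0 without KO_tdT 3 and KO_hM4D 1. Over all genes edgeR and DESeq2 called 8 and 62 in KO_tdT, 18 and 256 in WT_hM4D and 407 and 1482 in KO_hM4D against WT_tdT. Each member had at least 1007 counts in every library. An exact permutation test of 4 against 4 libraries cannot go below p = 0.0286.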
